A study of Mus musculus with 4 samples.

Results

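The ErbB receptor system is described here through 8 genes of the 15768 in the deposited gene table, chosen by name and found by their gene symbol: the receptors Egfr (gene ID 13649), Erbb2 (13866) and Erbb3 (13867), the ligands Nrg1 (211323), Hbegf (15200), Areg (11839) and Ereg (13874), and the feedback inhibitor Errfi1 (74155). The study was a bulk RNA-seq experiment that looked for effectors downstream of Lkb1 loss in JoMa1.3 cells, a mouse neural crest line. The control group (genotype label WT) received a pool of non-targeting siRNAs, and the knockdown group (genotype label Lkb1 KD) received a pool of siRNAs against Stk11, the gene for the kinase LKB1. Each group held 2 libraries, 1 from batch 1 and 1 from batch 2, with RNA taken 72 h after transfection at 60 nM siRNA. All libraries came from this single line, which is kept dividing by a conditional Myc transgene, and the same medium with 10 ng/mL EGF, 1 ng/mL FGF and 10% chick embryo extract was listed for all of them. The labels do not say which of the listed transfection reagents each library received.

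ErbB proteins are receptor tyrosine kinases that act as pairs. EGFR binds EGF, heparin-binding EGF-like growth factor (Hbegf), amphiregulin (Areg) and epiregulin (Ereg), ERBB2 has no known ligand of its own and is the preferred partner of the others, and ERBB3 binds neuregulins but has an impaired kinase and signals mainly in a pair with ERBB2. In the neural crest lineage, neuregulin 1 (Nrg1) signalling through ERBB3 and ERBB2 is needed for Schwann cell precursors. ERRFI1, also called MIG6, binds the active kinase domain and shuts the receptors off again.

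The promoters are shown for the members that have a window in the RefSeq table (build GRCm38.p6), as the 250 bases before a transcription start. They are shown because Areg and Errfi1, an inducible ligand and an inducible inhibitor, share a pair of motifs that the Egfr and Erbb2 windows lack. Each is written 5′ to 3′ on the plus strand, and capitals mark the cyclic AMP response element TGACGTCA and the TATA box TATAAA, both searched on both strands. The windows lie at chr5:91139349-91139598 (Areg), chr4:150854820-150855069 (Errfi1), chr11:16751953-16752202 (Egfr) and chr11:98412234-98412483 (Erbb2).
Areg: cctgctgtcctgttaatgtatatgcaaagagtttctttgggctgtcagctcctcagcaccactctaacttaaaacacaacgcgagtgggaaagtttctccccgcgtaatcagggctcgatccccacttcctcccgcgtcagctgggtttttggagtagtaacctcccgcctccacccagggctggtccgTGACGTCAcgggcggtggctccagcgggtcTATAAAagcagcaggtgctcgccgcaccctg
Errfi1: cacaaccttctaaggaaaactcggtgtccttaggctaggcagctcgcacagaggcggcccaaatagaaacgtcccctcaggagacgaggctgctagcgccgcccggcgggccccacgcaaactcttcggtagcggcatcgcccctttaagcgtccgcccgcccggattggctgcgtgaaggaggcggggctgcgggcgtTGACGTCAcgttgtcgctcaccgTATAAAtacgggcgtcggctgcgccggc
Egfr: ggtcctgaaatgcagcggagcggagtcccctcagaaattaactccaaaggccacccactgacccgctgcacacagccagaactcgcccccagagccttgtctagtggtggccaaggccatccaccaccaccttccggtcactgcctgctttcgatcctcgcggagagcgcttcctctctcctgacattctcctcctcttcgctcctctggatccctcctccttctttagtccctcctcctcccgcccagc
Erbb2: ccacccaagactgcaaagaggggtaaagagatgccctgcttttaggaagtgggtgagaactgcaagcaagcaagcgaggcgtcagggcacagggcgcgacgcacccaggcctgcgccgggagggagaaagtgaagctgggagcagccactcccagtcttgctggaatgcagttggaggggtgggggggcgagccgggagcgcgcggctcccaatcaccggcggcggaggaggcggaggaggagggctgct

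In the Areg window, TGACGTCA began 61 bases and TATAAA 31 bases before the start. The Errfi1 window held them at 51 and 28 bases before the start. This Errfi1 start lies 3 bases from that of NM_133753 in the GENCODE annotation of the same build, the transcript that carried at least 99.4% of the gene's level in every library. The Egfr and Erbb2 windows held neither motif, nor did a window upstream of a second Errfi1 start. Among all 32851 promoter windows of this length in the table, 1.55% held TGACGTCA, 12.4% held TATAAA and 0.119% held both. The motifs were picked after the sequences had been read, the motifs do not overlap each other, and a match in these letters is a description of the sequence and not a measured site. Windows of Erbb3, Nrg1, Hbegf and Ereg are not shown and were not searched for these motifs.

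As a check of the labels, Stk11 (gene ID 20869) was at 52.7 (batch 1) and 52.1 FPKM (batch 2) with control siRNA and at 36.3 and 36.9 FPKM with Lkb1 siRNA, so the groups did not overlap. FPKM, the fragments assigned to a gene scaled by transcript length and library size, compares levels between genes. The fall was -31.7% (95% confidence interval -38.4 to -24.3%, edgeR adjusted p = 0.0378), and the adjusted p lay between 0.0502 and 0.163 when counts were scaled by library size alone, when genes needed at least 5 CPM, or in limma on FPKM. Libraries held between 17426719 and 19324675 gene counts. Of 14 neural crest markers 11 had a value, with a summed level between 194.5 and 209.0 FPKM, led by Snai2, Tfap2b and Twist1. Among markers of Schwann cell precursors and glia besides Erbb3, 7 of the 9 with a value were under 1 FPKM, with Sox2 at most at 0.02 FPKM. Egr2 was between 6.37 and 9.96 FPKM and Pou3f1 between 4.43 and 5.76 FPKM. Sox10 and Foxd3 are not analysed here. Epithelial markers summed to at most 0.64 FPKM and melanocyte markers to at most 3.22 FPKM. Fibroblast and mesenchymal genes, by contrast, were abundant, with a sum between 1241.0 and 1728.3 FPKM. The smooth muscle list summed to between 309.1 and 409.6 FPKM, nearly all of it Acta2 and Tagln. Of its 7 markers, 5 were under 1 FPKM, with Myh11 at most at 0.07 FPKM.

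JoMa1.3 cells carried transcripts of every receptor and ligand in the set. Errfi1 and Egfr were the most abundant, at 28.7 ± 1.22 and 28.8 ± 1.67 FPKM in the control libraries (mean ± SD, n = 2), and these did not differ beyond their spread. Erbb2 followed at 16.0 ± 0.94 FPKM. Nrg1 at 9.04 ± 0.283 FPKM and Hbegf at 7.87 ± 2.18 FPKM overlapped between libraries, and so could not be put in order. Below them came Areg at 3.71 ± 1.22 FPKM, Erbb3 at 2.21 ± 0.219 FPKM and Ereg at 1.15 ± 0.163 FPKM, whose control values did not overlap. After Lkb1 siRNA Nrg1 and Hbegf still overlapped. Errfi1, at 32.7 ± 1.3 FPKM, now lay above Egfr at 25.5 ± 1.65 FPKM without overlap, and Erbb3 came closer to Ereg, at 1.44 ± 0.00707 against 1.25 ± 0.156 FPKM.

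**Figure D1:**
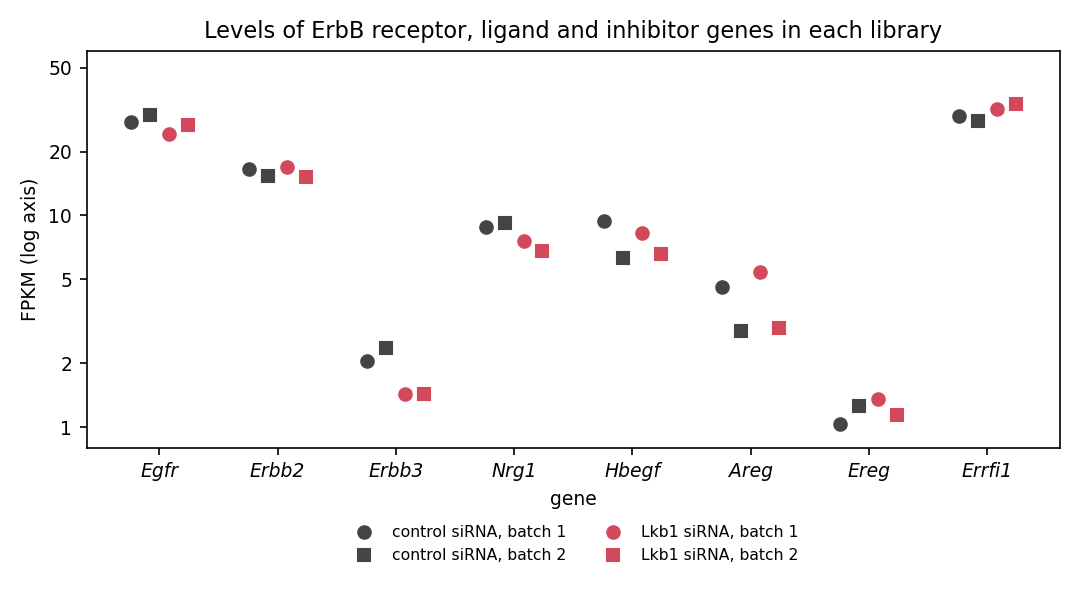
Level of each of the 8 genes in each of the 4 libraries, in FPKM on a log axis; dark points are control siRNA, red points Lkb1 siRNA, circles batch 1 and squares batch 2. The Lkb1 siRNA points lie below the control points for Egfr, Erbb3 and Nrg1 and above them for Errfi1, while Hbegf and Areg are lower in batch 2 than in batch 1 in both groups.

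No member passed the test of Lkb1 siRNA against control siRNA at an adjusted p of 0.05 when the 4 libraries were compared as groups of 2. That test was edgeR's quasi-likelihood F-test on the gene counts without a batch term, adjusted by the Benjamini-Hochberg method over 12222 genes, of which 0.0818% passed (4 higher and 6 lower). All 8 members had passed the filter on low counts. At an unadjusted p under 0.05 it gave 2 members, Egfr and Erbb3, against 1362 of all genes tested (11.1%). DESeq2 and limma on FPKM gave 0 members as well, as did DESeq2 with a batch term, where Erbb3, Hbegf, Areg and Ereg received no adjusted p. With batch as a replicate block in edgeR, Egfr and Erbb3 passed as lower and Errfi1 as higher, beside 6.99% of all genes passing as lower and 6.59% as higher. The blocked fit has 1 residual degree of freedom per gene and takes its spread almost wholly from other genes, so its p-values rest on that shared estimate. The p-values measure the spread between these libraries, which may be technical, since the labels give a number and a batch for each culture and nothing more on their independence.

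CPM levels are counts per library size, with that size scaled by edgeR's TMM factors. On this scale the groups did not overlap for 4 members, Egfr, Erbb3, Nrg1 and Errfi1, where 42.7% of all genes tested did not overlap. For Nrg1 the batch 1 libraries were close, at 33.8 CPM with control siRNA and 33.2 CPM with Lkb1 siRNA. By library size alone, Nrg1 in batch 1 was slightly higher with Lkb1 siRNA (584 of 17426719 counts) than with control siRNA (620 of 18718435). On that scale the Nrg1 groups therefore overlap. Overlap of the other members by library size alone was not examined. On average 5 members were lower and 3 higher, with a median log2 difference of -0.075 against 0.000494 over all genes tested. With the TMM factors the sign was the same in both batches for 6 members, Nrg1 among them, a share that was 67.2% over all genes tested. Hbegf and Ereg had opposite signs in the 2 batches.

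**Figure D2:**
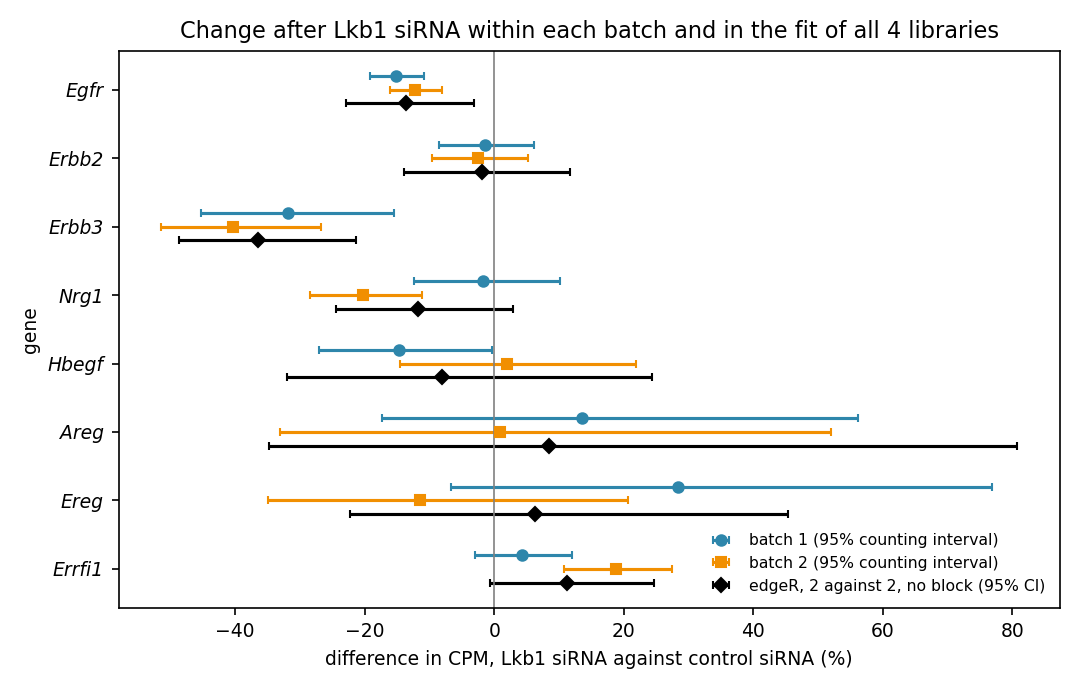
Difference of Lkb1 siRNA from control siRNA in CPM, in percent, for each gene: within batch 1 (blue circles) and batch 2 (orange squares) with 95% counting intervals, and from the edgeR fit of 2 against 2 libraries (black diamonds) with its 95% confidence interval. Erbb3 lies furthest from 0, at -31.9% in batch 1 and -40.3% in batch 2, and Egfr lies at -15.1% and -12.2%, while the intervals of the edgeR fit span 0 for the other 6 genes.

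Erbb3, the neuregulin-binding receptor, was the member furthest from no change. With control siRNA it was at 2.05 FPKM in batch 1 and 2.36 FPKM in batch 2, and with Lkb1 siRNA at 1.44 and 1.43 FPKM. Later pairs of values follow the same batch order. Both knockdown libraries lay below both controls. The read counts behind these levels were 219 and 260 in the controls and 143 and 151 after Lkb1 siRNA. In CPM it went from 12.7 ± 1.08 to 8.1 ± 0.0623 (SD, n = 2 per group), a difference of -36.4% with a 95% confidence interval from -48.6 to -21.3%. On the log2 scale the difference was -0.65 (standard error, SE, 0.136, edgeR adjusted p = 0.139 unblocked and 7.27e-06 with batch as a replicate block), and by its p the gene ranked 81 among the 12222 tested. In bulk RNA, fewer cells carrying a transcript and less of it per cell cannot be told apart. Within batch 1 the difference was -31.9%, with a 95% counting interval from -45.2 to -15.5%, and within batch 2 it was -40.3% (-51.4 to -26.7%). These intervals cover counting error only, because each batch held 1 library per group, so the spread between cultures is not in them. Reads without molecular identifiers are not independent molecules, so even the counting error may be larger than shown. When single libraries were left out, the log2 fold change of Erbb3 ran from -0.74 to -0.56, so it stayed negative.

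Marker sums of fibroblasts and smooth muscle were lower after Lkb1 siRNA within each batch, as Erbb3 and Egfr were. Smooth muscle markers, 7 of 7 with a value, summed to 409.6 and 383.2 FPKM in the controls and to 328.2 and 309.1 FPKM after Lkb1 siRNA, nearly all of it Acta2 and Tagln, which passed as lower with the replicate block only, and Cnn1 was listed at 0 in 3 libraries. Fibroblast markers, 8 of 9 with a value, summed to 1434.7 and 1728.3 FPKM against 1241.0 and 1472.9 FPKM, with 5 of 8 lower with the block, where 6.99% of all genes tested were, and 0 without it. Of 16 Schwann cell precursor and glial markers 9 besides Erbb3 had a value, and their sum was higher, at 11.4 and 12.6 FPKM in the controls and 14.7 and 16.2 FPKM after Lkb1 siRNA, with most of the sum from Egr2 and Pou3f1 and 7 of the 9 under 1 FPKM. Of 13 enteric neuron markers 5 had a value, with a sum of 24.6 and 19.8 FPKM in the controls and 31.5 and 25.0 FPKM after Lkb1 siRNA. That sum was nearly all Tubb3 and Uchl1, which passed as higher with the block (edgeR adjusted p = 0.0436 and 0.0411) and not without it (0.515 and 0.555), while Ednrb, Elavl3 and Nos1 were at most at 0.03 FPKM. The neural crest sum did not separate the groups, at 194.5 and 206.7 against 209.0 and 198.9 FPKM, although with the block Snai2 passed as lower (edgeR adjusted p = 0.0157; 0.503 unblocked) and Pax3 as higher (0.0177; 0.507 unblocked). The part that a change in cell makeup played in the Erbb3 and Egfr values was not tested.

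Egfr, the receptor for the EGF in the medium, was at 27.6 and 29.9 FPKM with control siRNA and at 24.3 and 26.6 FPKM with Lkb1 siRNA. The groups did not overlap, although the batch 2 knockdown library lay close to the batch 1 control. In CPM, Egfr went from 202.5 ± 7.85 to 174.9 ± 11.0 (SD, n = 2 per group), a difference of -13.6% (95% confidence interval -22.9 to -3.17%). On the log2 scale this was -0.21 (SE 0.073, edgeR adjusted p = 0.348 unblocked and 0.000398 blocked). The within-batch differences were close to each other, at -15.1% (95% counting interval -19.2 to -10.9%) in batch 1 and -12.2% (-16.1 to -8.05%) in batch 2.

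Erbb2, the shared partner, showed no difference beyond the spread between libraries. It was at 16.6 and 15.3 FPKM in the controls and at 16.9 and 15.2 FPKM after Lkb1 siRNA. The libraries of the groups overlapped and ordered by batch. The difference was -1.95%, with a 95% confidence interval from -14.0 to 11.7% (log2 difference -0.028 with SE 0.0838, edgeR adjusted p = 0.926 unblocked and 0.801 blocked), an interval that holds changes of either sign. Scaled by library size alone, the sign turned, to a log2 difference of 0.0044.

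The makeup of the receptor transcripts followed from these values. Egfr gave 59.6 and 62.9% of the summed FPKM of the 3 receptors in the controls and 57.0 and 61.6% after Lkb1 siRNA, and these overlapped. Erbb2 gave between 32.1 and 39.6%. The Erbb3 share was 4.43 and 4.96% in the controls and 3.38 and 3.31% after knockdown. Per 100 FPKM of Erbb2, its partner, Erbb3 stood at 12.3 and 15.4 FPKM in the controls and at 8.52 and 9.43 FPKM after Lkb1 siRNA. Erbb3 was thus the minor receptor transcript in every library, and its ratio to Erbb2 did not overlap between the groups. These ratios are descriptions of the deposited levels, with no test of their own, and the fourth receptor, Erbb4, is not analysed here.

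Egfr had 3 transcripts in the deposited transcript table. NM_207655 gave between 58.6 and 61.9% of the gene's FPKM. The predicted transcript XM_036156288, whose coding length was not available, gave between 26.0 and 27.3%. In read counts XM_036156288 was closer to NM_207655, at 1662.4 and 1841.6 against 1800.3 and 1991.8 in the controls. The short transcript NM_007912, with a coding length of 1965 bases against 3630 in NM_207655 (GENCODE annotation, GRCm38), encodes a truncated receptor without the kinase. It was at 3.28 and 3.89 FPKM in the controls and at 2.94 and 3.76 FPKM after Lkb1 siRNA. Its share of the gene was 11.9 and 13.0% against 12.1 and 14.1%, so the share overlapped between groups and was higher in batch 2 in both. Erbb2 (NM_001003817) and Erbb3 (NM_010153) had a single transcript each.

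Nrg1, the neuregulin that binds ERBB3, was at 8.84 and 9.24 FPKM in the controls and at 7.55 and 6.8 FPKM after Lkb1 siRNA. The groups did not overlap in FPKM. In counts the batches differed in size: within batch 1 Nrg1 went from 33.8 to 33.2 CPM, a difference of -1.75% (95% counting interval -12.4 to 10.2%), and within batch 2 from 39.6 to 31.6 CPM, a difference of -20.3% (-28.5 to -11.2%). Over all libraries the difference was -11.8% (95% confidence interval -24.5 to 2.92%), or -0.18 on the log2 scale (SE 0.0991, edgeR adjusted p = 0.531 unblocked and 0.082 blocked). Nrg1 therefore did not pass in either fit. Its sign in batch 1 rests on the TMM factors, since by library size alone it turns. Without control siRNA replicate 2 its log2 fold change was -0.064, and leaving out replicate 1 of the controls instead gave -0.29.

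On the FPKM scale the log2 difference of Nrg1 was larger, at -0.30 with a pseudocount of 1 and -0.33 with a pseudocount of 0.1 (limma). Of 16 Nrg1 transcripts listed, 4 had at least 0.5 FPKM on average, and 2 of these were short. The values of NM_001364429 and NM_001364430 imply effective lengths of 1142 and 564 bases, so that a few reads gave a large FPKM. NM_001364430 was at 2.3 and 1.71 FPKM in the controls and at 1.09 and 1.09 FPKM after Lkb1 siRNA, from read counts of 24.3 and 18.7 against 10.6 and 11.4. NM_001364429 was at 2.09 and 2.17 FPKM against 2.03 and 1.39 FPKM. Together these short transcripts had 69.2 and 66.8 reads in the controls and 50.8 and 40.6 after Lkb1 siRNA, yet gave between 36.5 and 49.7% of the gene's FPKM. All other Nrg1 transcripts summed to 4.44 and 5.38 FPKM in the controls and to 4.43 and 4.32 FPKM after Lkb1 siRNA, so that in batch 1 the groups were nearly equal in this sum. The longer NM_001364421 was at 2.36 and 2.5 FPKM against 2.1 and 2.05 FPKM, and NM_001364428 at 0.78 and 0.71 FPKM against 0.51 and 0.5 FPKM. The split among transcripts is an estimate by the authors' software, deposited without an error.

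**Figure D3:**
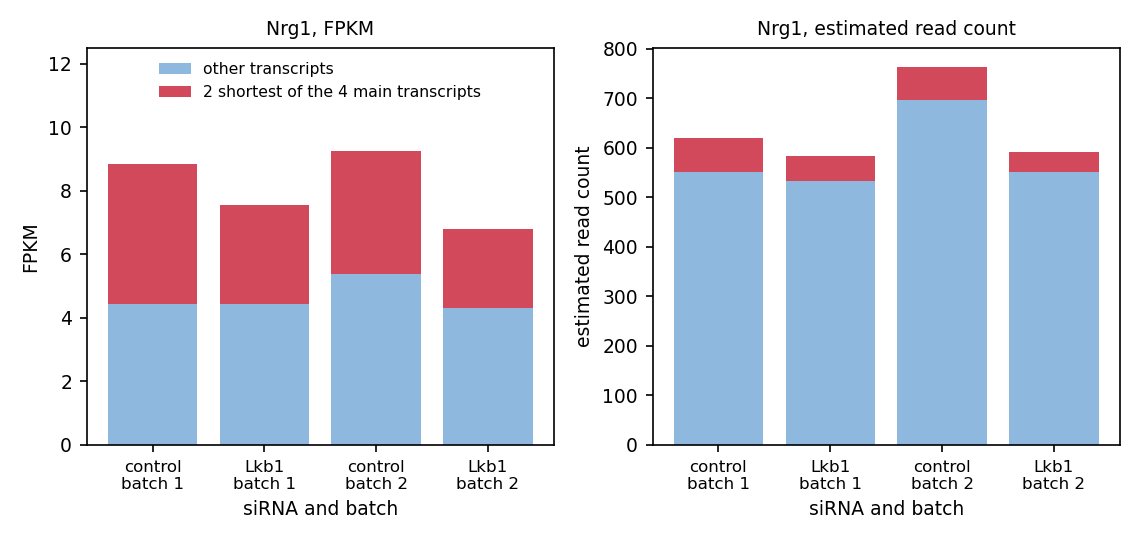
Nrg1 in each library, split into the 2 short transcripts among the 4 main ones (red) and all other transcripts (blue), in FPKM on the left and in estimated read counts on the right. The short transcripts hold 4.39, 3.12, 3.88 and 2.48 FPKM from left to right but only 69.2, 50.8, 66.8 and 40.6 reads, and the remaining FPKM in batch 1 is 4.44 for control siRNA and 4.43 for Lkb1 siRNA.

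Across the members, 26 transcripts were listed among the 53915 of the transcript table and 21 passed the filter. None passed an adjusted p of 0.05 in edgeR, with or without the replicate block, and neither did any of the 34279 transcripts tested (0.0% in either fit). At an unadjusted p under 0.05 the members had 3 transcripts in each of the fits, and all transcripts tested had 2313 without and 1764 with the block. A single transcript was listed for 5 members, Erbb2, Erbb3, Hbegf, Areg and Ereg.

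Among the ligands of EGFR, Hbegf and Areg differed between the batches and passed no test between the siRNA groups. Hbegf, the most abundant, was at 9.41 and 6.33 FPKM in the controls and at 8.29 and 6.58 FPKM after Lkb1 siRNA. Both batch 1 libraries were above both batch 2 libraries, and the groups overlapped. Its difference with Lkb1 siRNA was -8.03% (95% confidence interval -32.0 to 24.4%, log2 difference -0.12 with SE 0.193, edgeR adjusted p = 0.857 unblocked and 0.516 blocked), from -14.7% in batch 1 to 2.04% in batch 2. Between batches, Hbegf differed by -28.0% in batch 2 against batch 1 (edgeR adjusted p = 0.000132 in the blocked fit), a comparison added after the data had been seen, in which 12.9% of all genes tested passed.

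Areg, whose promoter window holds both motifs and was the only ligand window searched, was laid out alike. It was at 4.57 and 2.85 FPKM in the controls and at 5.39 and 2.94 FPKM after Lkb1 siRNA, from only 79 and 51 reads and 86 and 50 reads. Again batch 1 lay above batch 2 in both groups. The difference with Lkb1 siRNA was 8.5% with a wide 95% confidence interval, from -34.8 to 80.7% (log2 difference 0.12 with SE 0.327, edgeR adjusted p = 0.92 unblocked and 0.774 blocked). Batch 2 against batch 1 differed by -42.2% (edgeR adjusted p = 0.00264 in the blocked fit). Erbb2 was the third member to pass this comparison of batches, at -10.2% in batch 2 (edgeR adjusted p = 0.0483), while Egfr, Erbb3, Nrg1, Ereg and Errfi1 did not pass, with adjusted p from 0.149 to 0.998.

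Ereg was the lowest of the set. It was at 1.03 and 1.26 FPKM in the controls and at 1.36 and 1.14 FPKM after Lkb1 siRNA, from between 74 and 94 reads. The batches went opposite ways, 28.3% in batch 1 (95% counting interval -6.66 to 76.8%) and -11.4% in batch 2 (-35.0 to 20.6%), and both intervals span 0. Over all libraries the log2 difference was 0.088 (SE 0.201, edgeR adjusted p = 0.9 unblocked and 0.815 blocked). The 95% confidence interval of the difference ran from -22.3 to 45.4%. The direction of Hbegf, Areg and Ereg turned when single libraries were left out: log2 fold changes ran from -0.39 to 0.21 for Hbegf, from -0.38 to 0.51 for Areg and from -0.044 to 0.23 for Ereg.

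Among the other EGFR ligands, transforming growth factor alpha (Tgfa) was between 0.61 and 0.64 FPKM, betacellulin (Btc) between 0.5 and 0.8 FPKM and Egf itself between 0.3 and 0.44 FPKM, and none of them passed (edgeR adjusted p from 0.734 to 0.98; 0.526 to 0.967 with the replicate block). Epgn, Nrg2 and Nrg4 were at most at 0.2 FPKM and did not pass the filter, and Nrg3 is not analysed here. The 7 EGFR ligand genes summed to 16.7 and 12.2 FPKM in the controls and to 16.8 and 12.3 FPKM after Lkb1 siRNA. Hbegf gave between 49.2 and 56.3% of this sum and Areg between 23.5 and 32.0%. The summed ligand level was thus nearly equal between the groups within each batch.

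Errfi1, the inhibitor that EGFR signalling itself induces, was higher after Lkb1 siRNA, where Egfr was lower. It was at 29.5 and 27.8 FPKM in the controls and at 31.8 and 33.6 FPKM after Lkb1 siRNA, and the groups did not overlap. In CPM it went from 80.0 ± 4.44 to 89.0 ± 3.29 (SD, n = 2 per group), a difference of 11.3% (95% confidence interval -0.702 to 24.7%). On the log2 scale the difference was 0.15 (SE 0.0729, edgeR adjusted p = 0.469 unblocked and 0.0382 blocked). Within batch 1 the difference was 4.24% with a 95% counting interval that spans 0 (-2.97 to 12.0%), and within batch 2 it was 18.8% (10.8 to 27.4%). Errfi1 transcripts per Egfr transcript, in FPKM, stood at 1.07 and 0.929 in the controls and at 1.31 and 1.26 after knockdown. This ratio did not overlap between the groups, and it joins the receptor and its inhibitor in a single description without a test. Without control siRNA replicate 2 the log2 fold change of Errfi1 was 0.097, and without the other libraries in turn it reached at most 0.21. With DESeq2 and the replicate block the adjusted p was 0.782 for Errfi1 and 0.182 for Egfr.

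The rest of the pathway was read from 5 lists by role, with 95 of 101 genes tested. None passed in edgeR without the block, 9 had an unadjusted p under 0.05 beside 11.1% of all genes tested, and with the replicate block 4 were lower and 8 higher, beside 6.99% and 6.59% of all genes tested. The batches gave the same sign for 66.3% of these genes, close to the share over all genes tested. Among 12 genes that act on the shedding and processing of ErbB ligands 9 were lower, with a median log2 fold change of -0.11. These 9 include Timp3, an inhibitor of the shedding proteases, so they do not all act in the same direction. Timp3 passed as lower with the block (log2 fold change -0.17, edgeR adjusted p = 0.427 unblocked and 0.00871 blocked). Adam17, the main sheddase of Areg, Ereg and Hbegf, was at 16.5 and 16.6 FPKM against 15.5 and 15.6 FPKM and passed in neither fit (edgeR adjusted p = 0.536 and 0.159), and the related proteases Adam12 (log2 fold change -0.27) and Adam9 (-0.097) passed in neither fit.

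Among 31 adaptors and proximal kinases 17 were lower and 14 higher, with a median of -0.028. Gab2, a docking protein, was lower with the block, at 4.04 and 5.65 CPM against 3.13 and 2.99 CPM (log2 fold change -0.67, edgeR adjusted p = 0.346 unblocked and 0.00968 blocked), while Stat3 (log2 fold change 0.096), Erbin (0.12) and Pik3cb (-0.15) passed in neither fit. Of 24 genes that inhibit or traffic the receptors 14 were lower and 10 higher, with a median of -0.0062. The phosphatase gene Ptpn1 was higher with the block (log2 fold change 0.17, edgeR adjusted p = 0.549 unblocked and 0.0388 blocked), while Socs4 (0.18), Ptprj (-0.19) and Sh3kbp1 (-0.13) passed in neither fit.

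Errfi1 belongs by function with the genes that EGF and ERK signalling induce. In a list of 25 such genes 15 were higher and 10 lower, with a median log2 fold change of 0.075, and 12 were higher and 4 lower in both batches, where 67.2% of all genes tested had 1 sign in both. With the replicate block 7 passed as higher, Dusp6, Egr2, Egr3, Fos, Fosb, Junb and Phlda1, and Myc and Spry1 passed as lower, where 6.59% of all genes tested passed as higher and 6.99% as lower. Fosb, an AP-1 subunit, had 48.2 and 52.2 CPM in the controls and 77.7 and 55.6 CPM after Lkb1 siRNA (log2 fold change 0.41, edgeR adjusted p = 0.335 unblocked and 0.00203 blocked). Most of that difference came from batch 1, at a log2 difference of 0.69 against 0.093 in batch 2. Fos (0.46 in batch 1 and 0.015 in batch 2), Junb (0.41 and 0.07) and Egr3 (0.13 and 0.73) also differed mostly in a single batch. The batches were less uneven for Dusp6 (0.2 and 0.3), Egr2 (0.23 and 0.45) and Phlda1 (0.36 and 0.19). Egr2, an early growth response factor that also marks myelinating glia, had 17.4 and 19.0 CPM against 20.3 and 26.1 CPM (0.35, edgeR adjusted p = 0.375 unblocked and 0.00213 blocked). Dusp6, a phosphatase that inactivates ERK, had 110.6 and 84.2 CPM against 127.2 and 103.6 CPM (0.24, edgeR adjusted p = 0.523 unblocked and 7.05e-05 blocked). Myc, whose reads include any from the transgene of the line, had 50.4 and 44.7 CPM against 42.0 and 33.0 CPM (-0.34, edgeR adjusted p = 0.344 unblocked and 2.05e-05 blocked). Spry1, a feedback inhibitor, had 99.7 and 101.7 CPM against 92.2 and 84.2 CPM (-0.19, edgeR adjusted p = 0.373 unblocked and 0.00461 blocked). Without control siRNA replicate 2 the median of this list was -0.018, and without control siRNA replicate 1 it was 0.16.

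**Figure D4:**
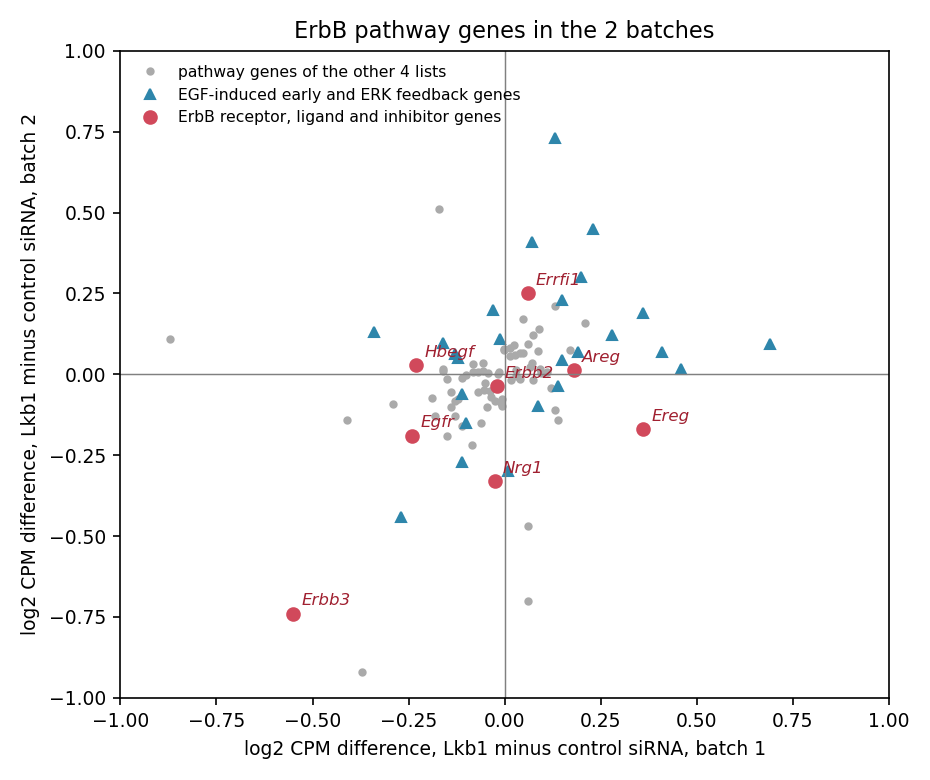
Log2 CPM difference of Lkb1 siRNA minus control siRNA in batch 1 (horizontal) and batch 2 (vertical) for the 8 ErbB genes (red, named), the 25 EGF-induced early and ERK feedback genes (blue triangles) and the genes of the other 4 pathway lists (grey). Erbb3, Egfr, Nrg1 and Erbb2 lie in the lower left, where 4 of the early genes also lie. Errfi1 and Areg lie in the upper right, as do 12 of the early genes.

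Genes whose pattern over the 4 libraries was nearest to that of each receptor were found by the Euclidean distance between log2 CPM deviations from the gene's mean, among 10889 genes. For Erbb3 they were Gyg (distance 0.0408), Atf5 (0.047) and Slc7a3 (0.063), with Atf5 at 56.7 and 61.9 CPM in the controls and 38.4 and 38.7 CPM after Lkb1 siRNA. For Egfr they were Tmem86a (0.0146), Rps27 (0.0259) and Hmox2 (0.0276), and for Erbb2 Eif2b5 (0.00703), Ubqln1 (0.00885) and Rprd1b (0.00996). With 4 libraries such a likeness is a description only.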

How the data were processed

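Bulk RNA-seq of JoMa1.3 cells gave 4 libraries, grouped by the siRNA in their labels. The submitters' processing notes list RSEM 1.2.8, HISAT2 2.0.4, Bowtie2 2.2.5 and build GRCm39. Roles and the annotation release are not given in the sources used here. Read pairs were 150 bp, per the labels' protocols. The deposited gene and transcript tables give each library, per the file headers, its FPKM, TPM, read count and normalised read count. The read counts are estimated counts made by the authors, since between 5.73 and 5.97% of gene counts are not whole. The deposited normalised read count, a signal scaled by the authors, entered no test; its median ratio to the count raised to the next whole number was 0.953 to 1.05 over the libraries in the gene table and 0.949 to 1.04 in the transcript table. The FPKM and TPM values are the authors' own, as deposited, and TPM entered no result. Doubled decimal points in 31 cells of the gene table and 73 of the transcript table were read as single.

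Counts were rounded and tested with edgeR 4.0.16 (R 4.3.3; TMM, robust quasi-likelihood F-test, filter with a minimum count of 10, Benjamini-Hochberg adjustment, threshold 0.05). The fit was also run on simulated counts with 200 genes changed, but the outcome is not given here and no result rests on it. Alternatives were the replicate block, DESeq2 1.42.0, limma 3.58.1 on log2(FPKM + 1) and log2(FPKM + 0.1), other scalings and filters, and leaving out each library. Libraries with the same number share a batch, per the labels, and are treated as pairs in the blocked fit. As a check, deviations from the group mean correlated at 0.183 across genes between libraries of 1 batch. The principal component with 41.3% of the variance separated the groups and that with 36.7% the batches. The common biological coefficient of variation was 6.39% without and 3.15% with the block.

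The members and lists were chosen with earlier results of these data known. Genes named are Stk11, the 8 members, up to 4 genes with the smallest p of each pathway list, 3 genes of nearest pattern for each receptor (mean of at least 2 CPM), markers, and transcripts with at least 0.5 FPKM on average. Dusp6, Egr3, Fos, Junb and Phlda1 were named after their values were seen, and so were the comparison of batches and the Nrg1 sum without its short transcripts. Promoter sequences are from RefSeq, with 4 members matched.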

Additional observations from a re-analysis of the deposited data

How the results depend on the processing

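Of 98 member values under an alternative that gave an adjusted p, 83 kept their sign and their side of the threshold, 60 of 66 under other fits and 23 of 32 when a library was left out. With the replicate block Egfr (log2 fold change -0.21, edgeR adjusted p = 0.000398), Erbb3 (-0.65, 7.27e-06) and Errfi1 (0.16, 0.0382) passed, so 2 members passed as lower and 1 as higher; the block changed no call of the other 5 members. Erbb2 turned sign when scaled by library size alone (0.0044) and in limma with an FPKM pseudocount of 1 (0.0052) or 0.1 (0.0054). Leaving out single libraries moved Erbb2 from -0.11 to 0.053, Erbb3 from -0.74 to -0.56, Nrg1 from -0.29 to -0.064, Errfi1 from 0.097 to 0.21, Hbegf from -0.39 to 0.21, Areg from -0.38 to 0.51 and Ereg from -0.044 to 0.23, and put 0 to 1 members as lower past the threshold, the 1 being Erbb3 without control siRNA replicate 1 (edgeR adjusted p = 0.0137). The cause was not tested. Over all genes the calls, higher and lower, were 806 and 854 with the block, 18 and 31 with DESeq2, 48 and 77 with DESeq2 and the block, 2 and 1 by library size, 13 and 32 with at least 1 count, 2 and 1 with at least 5 CPM, 0 and 0 with limma at either pseudocount, and 24 to 136 and 42 to 143 without single libraries, against 4 and 6. Pathway genes passing numbered 12 with the block and 1 to 3 without single libraries, and 16 of 30 medians of the lists moved beyond the spread. Areg and Ereg could not be fitted at 5 CPM. With a library left out, the lone sample is assumed to vary like the other group. Depth limits Areg and Ereg most, which had between 50 and 94 reads per library.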
